A study of Mus musculus with 16 samples.

Results

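Nanog encodes a homeodomain transcription factor of pluripotent cells, and its contacts with the surrounding chromosome were measured here in embryonic stem (ES) cells and neural progenitor cells (NPCs). The assay was 5C, in which HindIII fragments that lie close together in fixed nuclei are ligated, and ligation products between chosen fragments are amplified with forward and reverse primers and counted by sequencing. The contacts are those of the 16 kb window chr6:122653360-122669359 (mm9), taken as the Nanog gene. A primer pair belonged to the set when at least 1 of its fragments had its midpoint in that window. This gave 435 primer pairs inside the authors' binned region, all with counts, of the 91509 primer pairs with counts within the 7 loci of the study. Summed over pairs of 16 kb windows they made 44 pairs of the Nanog window, 29 upstream, 14 downstream and 1 within the window itself, of 15601 window pairs tested.

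The 3 untreated groups with 2 libraries each were compared. V6.5 mouse ES cells, a male line of 129SvJae x C57BL/6 background expanded on feeder cells and then moved to gelatin, were grown with LIF in serum or in 2i, which replaces serum by the kinase inhibitors CHIR99021 and PD0325901. NPCs were taken from whole brains of P1 129SvJae x C57BL/6 mice carrying Sox2-eGFP, passaged as neurospheres and fixed the day after plating on laminin. Whether both libraries of a group stem from separate cultures or animals is not stated, and each p-value therefore covers no more than the variation between libraries, which may be technical. Since the NPCs were primary cells and the ES cells a line, effects of cell type and of origin cannot be told apart, and no expression was measured against which to check the cells. Libraries held 11784821 to 26533530 counts, with the serum libraries the deepest, and the Nanog locus took 6.81% and 7.29% of the used counts in 2i, 6.12% and 6.19% in serum and 4.98% and 5.24% in NPCs.

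Contacts between a gene and its distal enhancers bring the enhancer's bound factors near the promoter, and CTCF, a DNA-binding protein, often marks the ends of chromatin loops. In ES cells Nanog is described as regulated by enhancers on both sides of the gene, about 45 kb upstream and about 60 kb downstream, in a neighbourhood shared with other genes expressed in pluripotent cells. RefSeq lists Gdf3 (a TGF-beta family ligand) and Dppa3 (a maternal factor of early embryos and germ cells) next upstream, and Slc2a3 (a glucose transporter) and Foxj2 (a forkhead factor) next downstream. Nanog is transcribed in pluripotent cells and is not known as a gene of neural progenitors.

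The Nanog promoter is shown because it holds the assay's own cutting site beside the element through which Oct4 and Sox2 are known to act. It is the RefSeq window chr6:122707239-122707538 of GRCm38.p6, plus strand, with 250 bases before and 50 after the gene start. The 5C files use mm9, so these coordinates cannot be set against theirs. A cut at its HindIII site would divide the promoter between adjoining fragments. Which of the fragments described here hold its parts was not determined. Capitals mark the HindIII site AAGCTT, the octamer core TTTGCAT and the Sox core ACAATG, in that order.
Nanog promoter: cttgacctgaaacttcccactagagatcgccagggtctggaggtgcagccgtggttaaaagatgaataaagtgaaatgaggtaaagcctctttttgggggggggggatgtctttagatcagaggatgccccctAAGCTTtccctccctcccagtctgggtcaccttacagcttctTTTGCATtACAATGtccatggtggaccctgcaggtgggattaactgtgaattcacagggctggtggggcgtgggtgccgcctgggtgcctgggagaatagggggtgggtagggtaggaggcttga
The HindIII site begins 117 bases before the gene start, the octamer core 75 and the Sox core 67. Searched on both strands, AAGCTT occurred in 7.45% of the 32851 promoter windows of the same length, TTTGCAT in 4.63% and ACAATG in 12.6%. These are matches of letters only.

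Nanog made fewer contacts with the rest of its locus in NPCs than in either ES state. Over the other 43 windows, contacts per 1000000 counts used (CPM) were 8735 and 9059 in 2i, 6072 and 6567 in serum, and 2447 and 2603 in NPCs. The 3 groups did not overlap, with 2i highest and NPCs lowest. The counts are sums over many cells, so fewer cells with a contact and a rarer contact in each cell cannot be told apart. Contacts between fragments inside the Nanog window were 2489 and 2403 CPM in 2i, 1576 and 1714 in serum, and 2140 and 2220 in NPCs. NPCs thus lay between the ES states there. Some of these pairs join directly adjoining fragments. The largest such pair over all libraries had 6889 and 7683 counts in 2i, 7653 and 7115 in serum, and 6968 and 8222 in NPCs. The window's totals were 26390 and 27965 in 2i, 33649 and 35063 in serum, and 26341 and 28460 in NPCs. These counts are not scaled for depth. How far adjoining fragments set the order of the groups was not tested. With 2 libraries against 2, an exact permutation test of a single value cannot give a two-sided p below 0.33, and differences are therefore tested in a fit across all window pairs. As a share of the locus's own counts, contacts of the Nanog window with other windows made up 12.8% and 12.4% in 2i, 9.93% and 10.6% in serum, and 4.92% and 4.96% in NPCs. The share of these contacts that reached upstream was 60.3% ± 0.42 (SD, n = 2) in 2i, 60.3% ± 0.52 in serum and 62.4% ± 1.27 in NPCs, where the NPC libraries themselves were at 63.3% and 61.5%.

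The shape of the profile was set against the distance trend, the smooth fall of contact counts with distance within the locus and library, as log2 of observed over trend. The partner directly upstream, 16 kb away, stood highest, with a mean of 3.29 over the 6 libraries. It was seen through 3 primer pairs with 1 partner fragment, and 1 of these pairs held 59.9% of its counts. That pair joined 2 fragments with consecutive primer numbers, and the one of the Nanog window begins before that window's start. These fragments may thus lie much closer together than the 16 kb between the windows. How far this raised the value over the trend was not tested. Among partners at least 2 windows away, the 5 highest were 48 kb upstream (2.26), 112 kb upstream (2.11), 400 kb upstream (1.91), 384 kb upstream (1.60) and 48 kb downstream (1.57). The first of these holds the point 45 kb upstream at which an enhancer is described. In the second, 1 primer pair held 58.1% of the counts, the highest such share among the 5. The window holding the point 60 kb downstream, 64 kb away, had a mean of 0.87.

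**Figure D1:**
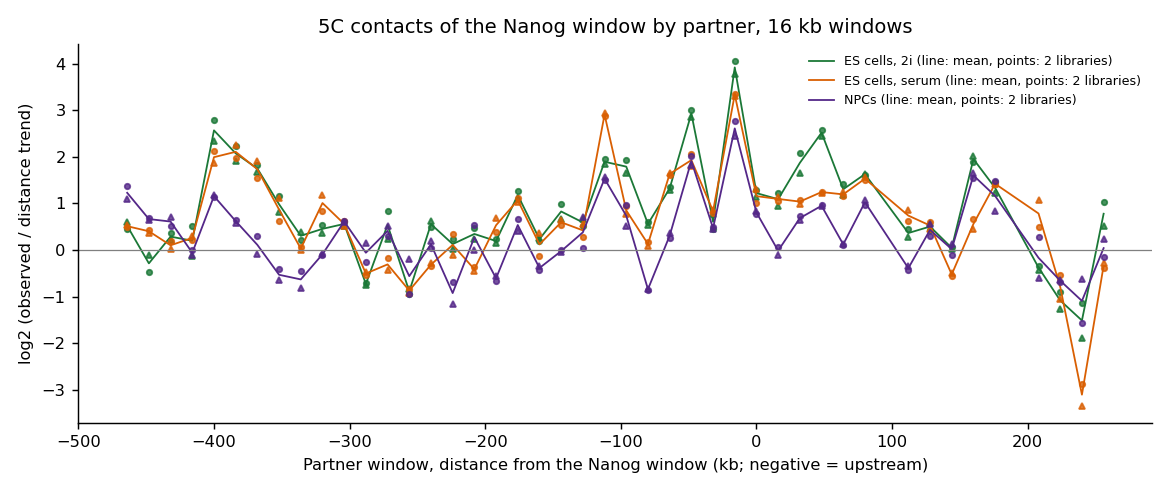
Log2 of observed over distance trend (y axis) for each of the 44 partner windows by distance from the Nanog window in kb (x axis), with lines for group means and points for the 2 libraries of a group. NPCs lie below both ES states from 400 to 352 kb upstream and at the window 16 kb downstream, while at 48 kb upstream NPCs and serum overlap and 2i stands above both.

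The order of groups differed among these partners. At 48 kb upstream log2 observed over trend was 3.01 and 2.85 in 2i, 2.05 and 1.81 in serum, and 2.01 and 1.81 in NPCs, so only 2i stood apart. At 112 kb upstream it was 1.95 and 1.84 in 2i, 2.88 and 2.94 in serum, and 1.50 and 1.56 in NPCs, with serum highest and no overlap. At 400 kb upstream it was 2.79 and 2.35 in 2i, 2.13 and 1.86 in serum, and 1.14 and 1.18 in NPCs, which again did not overlap. At 384 kb upstream the ES states overlapped, with 2.23 and 1.92 in 2i and 1.97 and 2.25 in serum, and NPCs were lower at 0.65 and 0.59. At 48 kb downstream the values were 2.59 and 2.45 in 2i, 1.25 and 1.23 in serum, and 0.97 and 0.93 in NPCs, in 3 separate levels.

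Likeness of profiles was measured by Pearson correlation of mean log2 observed over trend across 42 shared partners. The 3 windows most like Nanog lay 64 kb downstream (r = 0.89), 112 kb upstream (r = 0.85) and 128 kb upstream (r = 0.83). The partners share libraries and the distance trend, so these values are descriptions.

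The first comparison asked how Nanog contacts differ between NPCs and ES cells in 2i. Relative to the distance trend, 21 of the 44 window pairs fell in NPCs and 3 rose (edgeR quasi-likelihood test, Benjamini-Hochberg adjusted p below 0.05 over all loci). Over all 15601 window pairs 17.1% were called, 8.58% as rises and 8.53% as falls, and among the other 944 pairs of the Nanog locus 20.6% were called, 11.1% as falls and 9.43% as rises. The median log2 fold change was -0.58 over the Nanog pairs and 0.04 over all pairs. Most falls lay in stretches: 5 windows in a row from 400 to 336 kb upstream, 4 from 192 to 144 kb upstream, 4 from 96 to 48 kb upstream, and 5 from 16 to 80 kb downstream. The window 16 kb upstream fell too. With the first 2i library left out the count was 14, all falls.

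The largest falls lay on both sides of the gene. With the window 368 kb upstream, Nanog had 160 and 183 CPM in 2i and 29.1 and 24.7 in NPCs, without overlap. The log2 fold change was -1.63 (SE 0.20, edgeR adjusted p = 4.18e-05). With the window 48 kb downstream the contacts were 767 and 818 CPM in 2i and 122 and 142 in NPCs. This pair fell by 1.57 on the log2 scale (SE 0.16, edgeR adjusted p = 9.58e-06). The window 352 kb upstream had 41.0 and 40.4 CPM in 2i and 6.99 and 6.55 in NPCs, and the log2 fold change was -1.53 (SE 0.26, edgeR adjusted p = 0.000693).

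The pairs with the points of the described enhancers fell as well. At 48 kb upstream CPM were 1028 and 1078 in 2i and 252 and 261 in NPCs, a log2 fold change of -1.02 (SE 0.17, edgeR adjusted p = 0.000587). At 64 kb downstream they were 431 and 435 in 2i and 77.7 and 94.1 in NPCs, a log2 fold change of -1.19 (SE 0.17, edgeR adjusted p = 0.000154). In both pairs the 2i libraries lay far above the NPC libraries. The adjacent windows gave 1938 and 1801 in 2i against 592 and 527 in NPCs upstream, and 819 and 757 against 274 and 269 downstream. Their log2 fold changes were -1.31 (SE 0.17, edgeR adjusted p = 7.61e-05) and -1.11 (SE 0.17, edgeR adjusted p = 0.000276). Contacts inside the Nanog window did not pass the test (log2 fold change -0.42, SE 0.16, edgeR adjusted p = 0.0835).

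**Figure D2:**
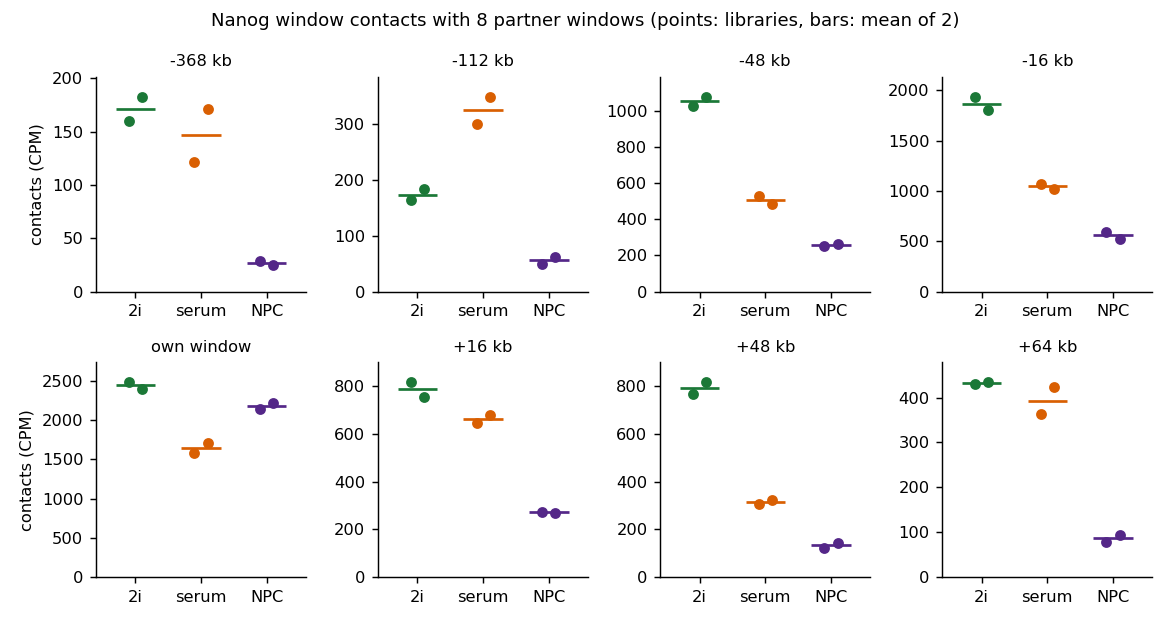
CPM of the Nanog window (y axis, from 0) with 8 partner windows in ES cells in 2i, ES cells in serum and NPCs (x axis), with points for libraries and bars for means of 2. NPC libraries are lowest in every panel but the own window, and serum exceeds 2i at 112 kb upstream alone.

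The 3 rises were small and lay far from the gene. They were 448 kb upstream (log2 fold change 0.94, edgeR adjusted p = 0.0494), 464 kb upstream (0.71, edgeR adjusted p = 0.0367) and 288 kb upstream (0.69, edgeR adjusted p = 0.0371). At 448 kb the contacts were 5.75 and 9.45 CPM in 2i and 7.72 and 8.50 in NPCs, and at 464 kb 20.5 and 29.1 in 2i and 24.1 and 22.5 in NPCs, so both overlapped. At 288 kb they were 31.0 and 37.3 CPM in 2i and lower in NPCs, at 19.8 and 29.9. The 3 rises were thus against the distance trend and not in CPM. None of the 3 passed under plain TMM scaling, where 34 pairs fell and 0 rose and the median of the Nanog pairs was -1.18, against -0.48 for the other pairs of the locus and -0.02 for all pairs. They also failed with only the libraries of these groups fitted, or with the first or the second 2i library left out.

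The second comparison asked the same of serum-grown ES cells, and it shares its NPC libraries with the first. Among pairs of the Nanog window 25 were called, 20 falls and 5 rises, against 29.3% of all window pairs, 15.2% as falls and 14.1% as rises. The median log2 fold change was -0.36 over the Nanog pairs and -0.03 over all pairs. It was -0.70 over the Nanog pairs under plain TMM scaling and -0.84 with 1 trend over all loci, with -0.31 and -0.29 for the other pairs of the locus. The share called among the other pairs of the locus was 31.8%, with 17.7% falls and 14.1% rises. With the first or the second serum library left out the count was 16, with 14 falls and 2 rises in each case.

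The stretch far upstream held the largest falls here too. At 368 kb upstream CPM were 122 and 171 in serum and 29.1 and 24.7 in NPCs, a log2 fold change of -1.63 (SE 0.20, edgeR adjusted p = 2.24e-05). At 384 kb upstream they were 75.4 and 99.9 in serum and 17.7 and 18.8 in NPCs, a log2 fold change of -1.50 (SE 0.20, edgeR adjusted p = 4.72e-05). At 352 kb upstream they were 25.8 and 39.9 in serum and 6.99 and 6.55 in NPCs, a log2 fold change of -1.43 (SE 0.25, edgeR adjusted p = 0.000609). The serum libraries differed from each other by more than the NPC libraries in these windows and stayed above them in all 3. No CTCF peak lay in the window 368 kb upstream in any of the deposited lists.

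The enhancer points gave different values on the 2 sides of the gene. At 64 kb downstream CPM were 363 and 424 in serum and 77.7 and 94.1 in NPCs, and the pair fell (log2 fold change -1.08, SE 0.17, edgeR adjusted p = 0.000185). At 48 kb upstream they were 530 and 483 in serum and 252 and 261 in NPCs, a log2 fold change of -0.02 against the distance trend (SE 0.17, edgeR adjusted p = 0.941). A single primer pair held 39.4% of the window pair's counts, and without it the log2 fold change was 1.01 (edgeR adjusted p = 0.000353), a rise. The window 16 kb downstream fell (log2 fold change -1.11, SE 0.17, edgeR adjusted p = 0.00014), and so did the one 16 kb upstream (log2 fold change -0.72, SE 0.17, edgeR adjusted p = 0.00441), which gave -0.07 without its largest primer pair, -0.37 under plain TMM scaling and -0.57 without the second NPC library, none of them past the threshold.

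The largest rise was that of the window 240 kb downstream, where counts were 56 and 43 in serum and 40 and 93 in NPCs. The log2 fold change against the trend was 2.08 (SE 0.45, edgeR adjusted p = 0.00258), from CPM of 2.62 and 2.10 in serum and 3.25 and 7.25 in NPCs. The windows 160 kb downstream and 464 kb upstream also rose, by 1.04 (edgeR adjusted p = 0.000451) and 0.72 (edgeR adjusted p = 0.0216) on the log2 scale. The latter was no longer called without the first serum (0.70), the second serum (0.74) or the first NPC library (0.57). At 160 kb downstream CPM overlapped between groups, at 47.0 and 45.9 in serum and 40.0 and 51.0 in NPCs, so that rise too was one against the trend, and it was 0.50 under plain TMM scaling (edgeR adjusted p = 0.0607).

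The third comparison set the 2 ES states against each other. In serum 12 pairs of the Nanog window fell and 2 rose relative to 2i, against 21.9% of all window pairs called, 10.3% as falls and 11.6% as rises. Among the other pairs of the locus 23.4% were called, 10.3% as falls and 13.1% as rises. The median log2 fold change was -0.10 over the Nanog pairs and 0.05 over all pairs, and under plain TMM scaling -0.33 and -0.03, with -0.21 for the other pairs of the locus. The largest falls were at 240 kb downstream (log2 fold change -1.62, SE 0.44, edgeR adjusted p = 0.0155), 160 kb downstream (-1.39, SE 0.18, edgeR adjusted p = 0.000105) and 48 kb downstream (-1.28, SE 0.16, edgeR adjusted p = 8.84e-05). The count was 8 without the first 2i library, 8 without the first serum library and 4 without the second serum library. The fall at 240 kb downstream was -1.21 without the first 2i library and -1.40 without the second serum library, and neither value passed.

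At 48 kb downstream the fall was from 767 and 818 CPM in 2i to 305 and 324 in serum. At 48 kb upstream it was from 1028 and 1078 to 530 and 483, a log2 fold change of -0.997 (SE 0.17, edgeR adjusted p = 0.000752). Neither pair overlapped between the 2 media. The window 64 kb downstream, the other enhancer point, had 431 and 435 CPM in 2i and 363 and 424 in serum and did not pass (log2 fold change -0.11, SE 0.16, edgeR adjusted p = 0.662).

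The 2 rises in serum each rested on 1 primer pair. At 112 kb upstream CPM were 164 and 183 in 2i and 300.1 and 349 in serum, a log2 fold change of 1.01 (SE 0.16, edgeR adjusted p = 0.000595). A single primer pair held 58.1% of these counts, and without it the log2 fold change was 0.12 (edgeR adjusted p = 0.731). At 208 kb downstream the rise of 1.19 (SE 0.27, edgeR adjusted p = 0.0052) became -0.05 (edgeR adjusted p = 0.914) without the primer pair that held 61.3% of the counts, and it was 0.87 (edgeR adjusted p = 0.117) without the second serum library.

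**Figure D3:**
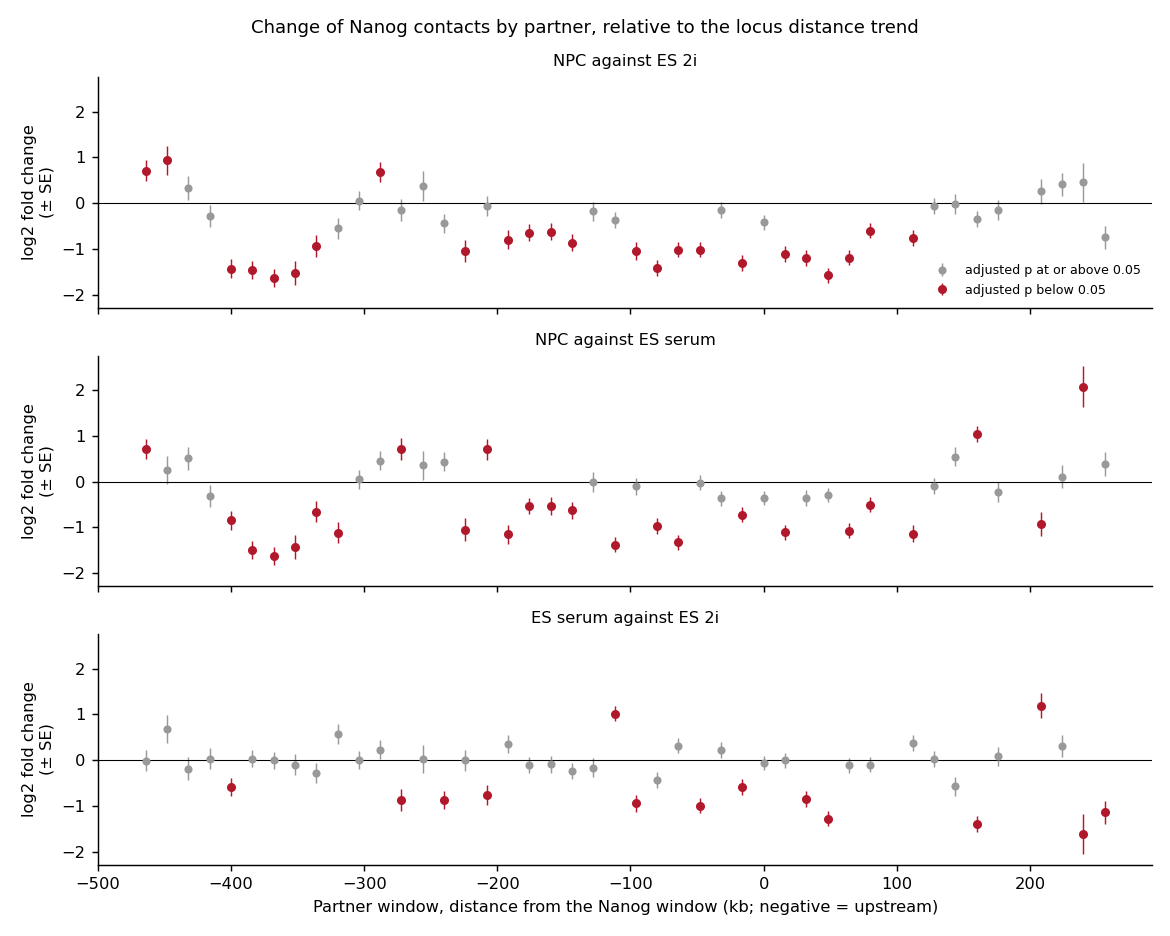
Log2 fold change with its standard error (y axis) of each pair of the Nanog window by partner distance in kb (x axis), for the 3 comparisons, with called pairs in red. Falls from 400 to 336 kb upstream appear in both NPC panels, and the panels share libraries: each group enters 2 of them.

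The 6 HindIII fragments of the Nanog window did not change alike, and the window pairs sum over them. From upstream to downstream they were FOR_136 (chr6:122653114-122656478), REV_137 (chr6:122656480-122657392), REV_138 (chr6:122657394-122659193), FOR_139 (chr6:122659195-122664496), REV_140 (chr6:122664498-122666498) and FOR_141 (chr6:122666500-122670401). Primer names give the orientation, and a forward fragment can be seen only with reverse fragments. Singly tested, which was chosen after seeing the data, 387 of the 435 primer pairs passed the count filter.

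In NPCs against 2i, 58 of the 387 primer pairs fell and 1 rose, where 2.54% of all 76201 single primer pairs fell and 1.56% rose. Falls were spread over 5 of the 6 fragments, with 16 for FOR_136, 8 for REV_138, 15 for FOR_139, 15 for REV_140 and 3 for FOR_141 among partners outside the window, and 0 for REV_137, of which 33 pairs were tested. Contacts of FOR_136 with partners at least 2 windows away were 1457 and 1537 CPM in 2i and 304 and 322 in NPCs. Those of REV_140 were 1128 and 1014 in 2i and 252 and 265 in NPCs. For each of the 6 fragments both NPC libraries lay below both 2i libraries in CPM, a count not made for other fragments. The Nanog locus as a whole also held a smaller share of the used counts in NPCs. Median log2 fold changes against the trend ran from -0.92 for REV_140 to -0.25 for FOR_141. Among 1478 fragments with at least 20 tested pairs, 32 had a lower median than REV_140 and 254 a lower one than FOR_141. The 5th percentile was -0.62.

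Between 2i and serum the fragments differed in opposite directions. From these counts an effect of the medium and one of the primers or libraries cannot be told apart. FOR_141 had 1365 and 1384 CPM of distal contacts in 2i, 284 and 344 in serum and 511 and 546 in NPCs, so serum was lowest. REV_140, its direct neighbour, had 1128 and 1014 in 2i, 1551 and 1860 in serum and 252 and 265 in NPCs, so serum was highest. FOR_139 had 1322 and 1792 in 2i, 648 and 633 in serum and 326 and 402 in NPCs.

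In serum against 2i, 78 of the 387 primer pairs fell and 22 rose, where 5.44% of all single primer pairs fell and 4.7% rose. Of the pairs with partners outside the window, FOR_141 had 38 falls and 0 rises among 68 tested, and REV_140 had 16 rises and 2 falls among 71. The median log2 fold change of a fragment over its tested pairs was -1.89 for FOR_141, -2.002 for REV_137 and 0.71 for REV_140. Among 1478 fragments of the 7 loci with at least 20 tested pairs, 15 had a lower median than FOR_141 and 8 a lower one than REV_137, and the 5th and 95th percentiles were -1.002 and 0.93. A shift over all partners of a fragment moves with every serum result of its window pairs, and its part in those results was not tested.

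In NPCs against serum the same libraries gave 57 rises and 86 falls among the 387 primer pairs, where 7.78% of all single primer pairs rose and 7.42% fell. FOR_141 had 36 rises and 0 falls, and REV_140 had 0 rises and 42 falls. The fragment medians were 1.60 and -1.50, and 31 of the 1478 fragments lay above the first and 7 below the second.

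**Figure D4:**
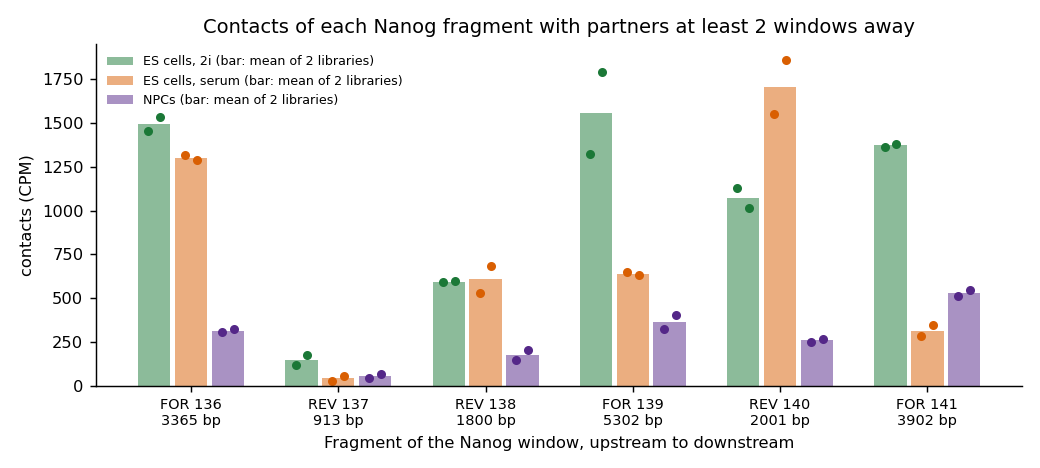
CPM (y axis, from 0) of each of the 6 Nanog fragments (x axis, with lengths) with partners at least 2 windows away, with bars for means of 2 libraries and points for libraries. NPC libraries lie below 2i libraries for each fragment, and serum is lowest for FOR_141 and highest for REV_140.

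In the window 48 kb upstream, 2 of the 9 primer pairs are described, chosen after their values were seen. Their counts are not scaled for depth, and the serum libraries were the deepest. FOR_136 with the fragment chr6:122605777-122614098 had 3659 and 3426 counts in 2i, 6801 and 5676 in serum and 295 and 303 in NPCs. It fell in NPCs against 2i (log2 fold change -2.87) and against serum (-2.80), and in serum against 2i the value was -0.06. FOR_141 with the fragment chr6:122616180-122622624 had 272 and 663 counts in 2i, 94 and 92 in serum and 494 and 704 in NPCs. It rose in NPCs against 2i (log2 fold change 1.20, edgeR adjusted p = 0.035) and against serum (4.29), and it was the 1 primer pair of the Nanog window that rose against 2i. In counts its 2i and NPC libraries overlapped. The same fragments in the other combinations did not pass against 2i: FOR_141 with the first partner fragment gave -0.71 (edgeR adjusted p = 0.238) and FOR_136 with the second gave -0.57 (edgeR adjusted p = 0.358).

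Both ends of that rising pair overlapped CTCF peaks of all 3 deposited lists. The CTCF lists come from a single ChIP-seq library in each condition and have no replicate check, and fold enrichments are the authors' values. The peak at the downstream end of FOR_141, chr6:122670020-122670451 in the 2i list, had a fold enrichment of 22.1 in 2i, 35.3 in serum and 15.2 in NPCs. The peak in the upstream fragment, chr6:122619279-122619833 in the 2i list, had 48.8 in 2i, 41.2 in serum and 43.3 in NPCs. Inside the Nanog window the 2i list held 2 weak peaks, with folds of 7.12 and 7.86, the serum list held 2 with 8.47 and 6.89, and the NPC list held 0.

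Across the locus the lists held 59 peaks in 2i, 54 in serum and 23 in NPCs, of 56138, 50185 and 28860 in the genome. The NPC list was thus the shortest in the genome as well as in the locus. Of the 43 partner windows, 32 held a peak in 2i, 28 in serum and 17 in NPCs. The nearest partner windows with peaks were 16 kb upstream, with peaks in both ES lists, 32 kb upstream, with a peak in the 2i list, and 16 and 32 kb downstream, with peaks in all 3. Nanog contacts fell in NPCs against 2i with 10 of 17 partner windows holding peaks in all 3 lists, 8 of 18 holding peaks in some lists and 3 of 8 without any. Against serum the falls numbered 8 of 17, 8 of 18 and 4 of 8. Rises in these classes numbered 1, 1 and 1 against 2i, and 2, 2 and 1 against serum. Over all window pairs, whatever their peaks, 8.53% fell against 2i and 15.2% against serum. Other window pairs were not divided by peaks, and whether the 3 classes differ was not tested.

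**Figure D5:**
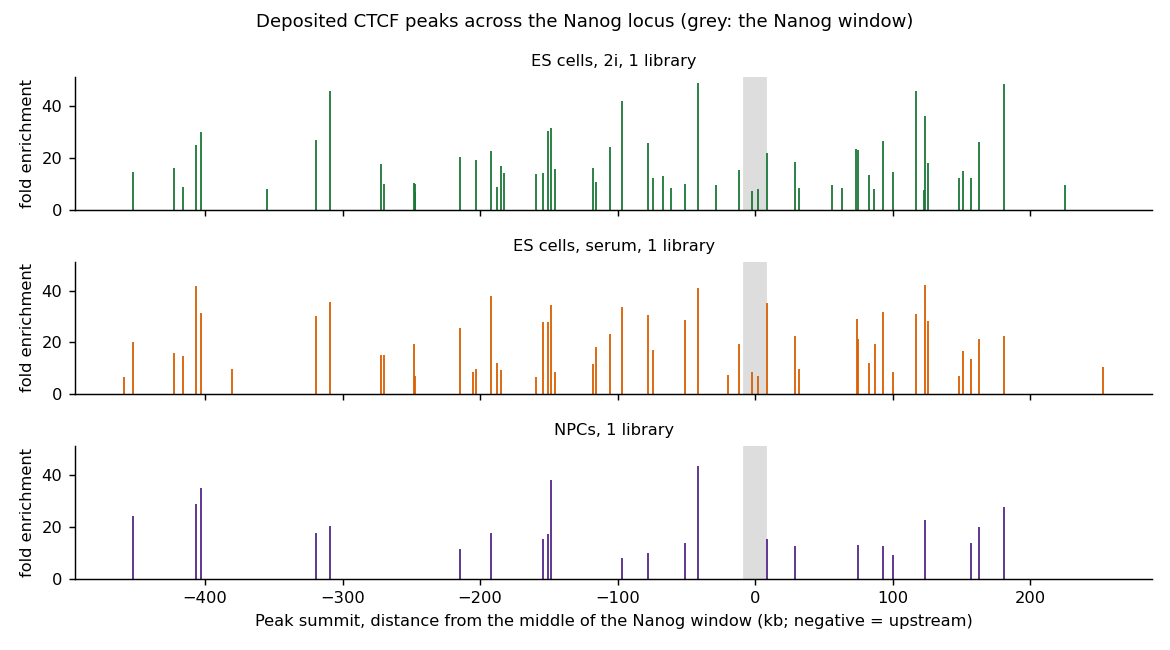
Fold enrichment (y axis, from 0) of each deposited CTCF peak of the Nanog locus by distance of its summit from the middle of the Nanog window in kb (x axis), with 1 panel per ChIP-seq library and the Nanog window in grey. The NPC list has 23 peaks against 59 and 54 in the ES lists, and the tall peak about 42 kb upstream is present in all 3.

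At the level of single primer pairs, 13 tested pairs joined FOR_141 to a partner fragment with peaks in all 3 lists. In NPCs against serum 9 of the 13 rose and 0 fell, with a median log2 fold change of 1.63. Among 46 pairs of FOR_141 with partners without any peak, 20 rose and 0 fell, with a median of 1.60. In NPCs against 2i the medians were -0.33 and -0.06, with 1 rise and 0 falls among the 13 and 0 rises and 1 fall among the 46. In serum against 2i 13 of the 13 fell, with a median of -2.09, and 17 of the 46 fell, with a median of -1.63. Over all tested pairs of FOR_141 with partners outside the window, 36 of 68 rose in NPCs against serum. In serum against 2i 38 of the 68 fell. Among all single primer pairs of the 7 loci the shares were 7.78% and 5.44%. The shifts were thus those of the whole fragment, with or without peaks at the partner. Whether the 2 sets differ was not tested.

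The authors' deposited table of classified looping bin pairs, in 4 kb steps, held 26 bin pairs of the Nanog window among the 233 looping bin pairs of the locus. Per the authors' deposited table, 2i and serum shared 11 of them, and of the rest 10 were constitutive, 3 were specific to NPCs and 2 to 2i. Among the 233 of the locus, 44 were shared by 2i and serum, 84 were constitutive, 64 were specific to NPCs and 15 to 2i. The pairs shared by 2i and serum had partners from 64 to 48 kb upstream and from 64 to 80 kb downstream, and the 2 specific to 2i had their partner 368 kb upstream. The authors' deposited table gives the latter mean scores of 68.2 and 72.8 in 2i, 29.3 and 35.6 in serum, and 19.4 and 12.2 in NPCs. Relative to the distance trend, the counts of that window pair fell in NPCs against both ES states. In serum against 2i their log2 fold change was 0.00 (SE 0.19, edgeR adjusted p = 0.993).

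The 3 bin pairs specific to NPCs joined Nanog to the window 432 kb upstream. The authors' deposited table gives them mean scores of 54.7 and 43.5 in NPCs, 1.71 and 5.54 in 2i, and 0.85 and 3.57 in serum. In raw counts the whole window pair had 131 and 176 counts in NPCs, 174 and 218 in 2i, and 289 and 265 in serum. Scaled for depth, the CPM were 10.6 and 13.7 in NPCs, 16.4 and 18.7 in 2i, and 13.5 and 13.0 in serum. Relative to the trend this was a log2 fold change of 0.33 against 2i (SE 0.26, edgeR adjusted p = 0.434) and 0.51 against serum (SE 0.26, edgeR adjusted p = 0.151), and neither passed.

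The constitutive class covered partners 32 and 48 kb upstream and 80 kb downstream. For the 6 constitutive bin pairs at 48 kb upstream the authors' deposited table gives mean scores of 49.0 and 53.5 in 2i, 40.9 and 44.9 in serum, and 39.2 and 45.5 in NPCs. The window 32 kb upstream passed in none of the 3 comparisons against the distance trend. Its log2 fold changes were -0.15 in NPCs against 2i, -0.37 in NPCs against serum and 0.22 in serum against 2i. In CPM it had 267 and 382 in 2i, 324 and 354 in serum and 161.5 and 179 in NPCs. Both NPC libraries thus lay below all ES libraries there. The window 80 kb downstream, with 333 and 405 CPM in 2i, 308 and 356 in serum and 92.0 and 119 in NPCs, fell in NPCs against both. Its log2 fold changes were -0.60 (edgeR adjusted p = 0.0161) and -0.51 (edgeR adjusted p = 0.0262), and the first was no longer called without the first 2i (-0.61) or first NPC library (-0.55). The second was lost with any 1 serum or NPC library left out, at values from -0.56 to -0.45, and without the largest primer pair, at -0.25 (edgeR adjusted p = 0.279).

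At 112 kb upstream the deposited scores are set beside the counts. In the authors' deposited table of all bin pairs, the mean score over 16 bin pairs was 26.8 and 29.2 in 2i, 13.8 and 15.4 in serum, and 27.7 and 37.7 in NPCs. The counts there were highest in serum. In the authors' deposited table both serum scores lay below both 2i scores at 34 of 41 partner windows and above them at 0, so a lower serum score was not particular to this window. That count was made for partners of the Nanog window only, and whether lower serum scores are particular to Nanog was not tested. Over the window 112 kb upstream the largest primer pair, REV_140 with chr6:122545292-122552393, had 715 and 742 counts in 2i, 4624 and 4402 in serum and 254 and 197 in NPCs. These counts are not scaled for depth.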

How the data were processed

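The members, lists and named windows were chosen with earlier results of these data known. The authors deposited raw 5C counts per primer pair, and per the submitters' processing notes reads were aligned with Bowtie to mm9. Filters on reads: not stated. HindIII 3C templates were used, per the labels' protocols. Per the labels, the raw reads of these libraries are those of earlier samples. The authors' deposited interaction score, on a scale that no source used here gives, comes per library and bin pair, and 29 further per-sample columns were not used. CTCF peaks carry the deposited fold enrichment (a ratio) and −log10 q, and MACS2 is named in the submitters' processing notes.

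Counts of primers of the same orientation (0.158% to 0.79%), between loci or outside the authors' bins were left out. The rest were summed over pairs of 16 kb windows, with fragments placed by midpoint. They were tested with edgeR 4.0.16 in R 4.3.3 (quasi-likelihood, filterByExpr, 1 fit over 6 libraries, group as the only term). Each library's offsets in a locus were a loess fit (span 0.5) against distance of the log of count plus 0.5 per designed primer pair. These offsets scaled the libraries in the main fit, in place of the TMM factors used in the plain TMM alternative. Adjusted p below 0.05 was the threshold, and the common biological coefficient of variation was 0.199. Reads are PCR products without molecular identifiers. The steps were tested on simulated data. Peaks were assigned to windows and fragments by an overlap of at least 1 bp. Python 3.11.15, numpy 2.4.6 and pandas 2.3.3 were used.

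Named partners were the window and its neighbours, those holding points 45 kb upstream and 60 kb downstream, the 3 largest rises and falls per comparison, the 5 highest over trend, partners of classified bin pairs, and the 2 nearest with CTCF peaks on each side. Alternatives were plain TMM, DESeq2 size factors, 1 trend over all loci, DESeq2 1.42.0 with the same offsets, other count filters, partner windows of 32 kb, leaving out the largest primer pair or each library, only the libraries compared, and a replicate block.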

Additional observations from a re-analysis of the deposited data

Results flagged for a closer look

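Partners outside the authors' binned region enter no comparison. The 123 designed primer pairs of the Nanog window with such partners all had counts, 12373 in total. The libraries held 1426 and 2088 in 2i, 2805 and 2791 in serum, and 1455 and 1808 in NPCs. This was above the limit that a count of 0 allows.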

How the results depend on the processing

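Plain TMM scaling, DESeq2 size factors, 1 trend over all loci, DESeq2 as the test, either count filter, only the libraries compared and dropping the largest primer pair kept the 3 counts of called pairs within 1.5 times of 24 in NPCs against 2i, 25 in NPCs against serum and 14 in serum against 2i. With 1 trend over all loci they were 32, 30 and 16. With partner windows of 32 kb, which leave 24 pairs, 13 were called in NPCs against 2i and 9 in serum against 2i, and named windows have no value there. Single primer pairs gave 59, 143 and 100 calls among 387. Leaving out 1 library gave 14 to 20 calls, 16 to 24 and 4 to 15.

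The replicate block gave 26, 26 and 16 calls. Same-numbered libraries deviated with correlations of 0.035, 0.085 and 0.021, so the numbers are not shown to pair them.

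Of 38 calls of named pairs, 21 held under all their 15 alternatives. Signs reversed without the largest primer pair at 48 kb upstream (NPCs against serum, 1.01) and 208 kb downstream (0.28 in NPCs against serum, -0.053 in serum against 2i). The own window, not called, rose in NPCs against serum under plain TMM (0.94) and DESeq2 size factors (0.97). These scalings keep the distance decay, and the cause was not tested. The upstream share without the largest primer pair was 57.5% in 2i, 51.2% in serum and 60.4% in NPCs, over distances present on both sides 55.7%, 55.3% and 58.0%, and over partners at least 2 windows away 56.0%, 59.9% and 59.9%. Partner windows with peaks above a list's median −log10 q numbered 20, 20 and 11. Depth limits the window 240 kb downstream, with 40 to 103 counts per library.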
